A study of Macaca mulatta with 4 samples.

Results

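The nuclear genes for respiratory complexes II to V were followed in RNA sequencing of the amygdala of infant rhesus macaques (Macaca mulatta). Members were chosen by symbol. They were the UQCR and ATP5 genes, the COX4I, COX5, COX6, COX7 and COX8 genes, CYC1, CYCS, and SDHA to SDHD. The rule took 41 of the 35395 deposited gene IDs, and 38 of them had 10 or more reads in at least 2 libraries. COX6A2, COX6B2 and COX8C did not. Subunits encoded in mitochondrial DNA, and UQCRFS1, UQCR10, UQCR11, ATP5PO, ATP5MF and ATP5MK, were not analysed here.

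The sevoflurane group held 1 female and 1 male wild-type animal that inhaled 2.5 to 3% sevoflurane, a halogenated general anaesthetic, in sessions of 4 hours at about postnatal days 7, 21 and 35. Tissue was collected directly after the last session. The control group held 1 female and 1 male wild-type animal, and the sources used here do not give what they breathed. Nothing states that tissue was not pooled or that the 4 libraries were prepared together, so the p-values measure the spread between these libraries, which includes the difference between the sexes.

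The respiratory chain passes electrons from metabolic fuels to oxygen and pumps protons across the inner mitochondrial membrane. Complex II (succinate dehydrogenase) feeds electrons from succinate into ubiquinone, complex III passes them to the mobile carrier cytochrome c, and complex IV (cytochrome c oxidase) reduces oxygen. Complex V, the ATP synthase, uses the proton gradient to make ATP. Neurons depend on this supply for ion pumping and synaptic transmission.

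Reads on genes numbered 14413858 and 13615927 in the sevoflurane female and male libraries and 16293371 and 12477047 in the control female and male libraries. Levels below are counts per 1e6 reads (CPM) after TMM scaling, which corrects library totals for differences in composition. Markers of forebrain and amygdala neurons were detected in each library, 7 of 7, with summed levels of 1740 and 1391 CPM in the sevoflurane libraries and 2031 and 1595 CPM in the controls. The control male library stood apart in choroid plexus markers, whose sum was 29.9 and 4.12 CPM in the sevoflurane female and male, against 48.3 and 18164 CPM in the control female and male. FOLR1, one of these markers, had 0 reads in the sevoflurane male, and KCNJ13 had 0 reads in both sevoflurane libraries. The control male library was also the highest in 2 other marker sums. Ependymal markers summed to 18.5 and 17.0 CPM in the sevoflurane female and male, against 25.2 and 147 CPM in the control female and male. For red blood cell markers the sums were 1.14 and 0.82 CPM in sevoflurane, female and male, and 7.11 and 29.0 CPM in control. The part of all these cells in the results below was not tested beyond leaving the library out.

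Most transcripts of complexes II to V were lower after sevoflurane. Of the 38 members, 28 fell, 0 rose and 10 were not called at an adjusted p under 0.05 (edgeR quasi-likelihood test, Benjamini-Hochberg over all 15417 genes tested), while 19.4% of all tested genes were called lower and 21.3% higher. SDHC came to an adjusted p of 0.0508, and under 5 of the 10 alternative settings it was called higher. Calls in either direction covered 40.7% of all tested genes. The median log2 fold change of the members was −1.60, beside 0.0040 for all tested genes. The log2 fold change was negative for 34 of 38 members, beside 49.9% of all tested genes. TMM scaling centres most genes near 0, so both values for all tested genes are largely set by it. Together the members took 0.577% and 0.585% of reads in the sevoflurane female and male libraries, against 1.25% and 1.42% in the control female and male libraries. Their summed level was 5368 ± 144 CPM in sevoflurane and 14521 ± 1695 CPM in control libraries (SD, n = 2 each), 2.70-fold higher in controls. Without the control male library 22 members were called lower and the median was −1.51.

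The complexes differed in how many of their genes were called. All 12 complex IV genes that met the read minimum fell, and their log2 fold changes had a median of −1.84 (11 of 11 and −1.82 without COX4I2, which met the minimum through the control libraries alone). In complex V 10 of 15 fell (median −1.72), in complex III 4 of 6 (median −1.36) and in complex II 2 of 4 (median −0.43). Cytochrome c, encoded by CYCS, was not called (0.06 ± 0.26 SE). These are counts of small sets, and the complexes were not tested against each other. In bulk tissue, fewer cells of a type and less RNA per cell cannot be told apart.

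**Figure D1:**
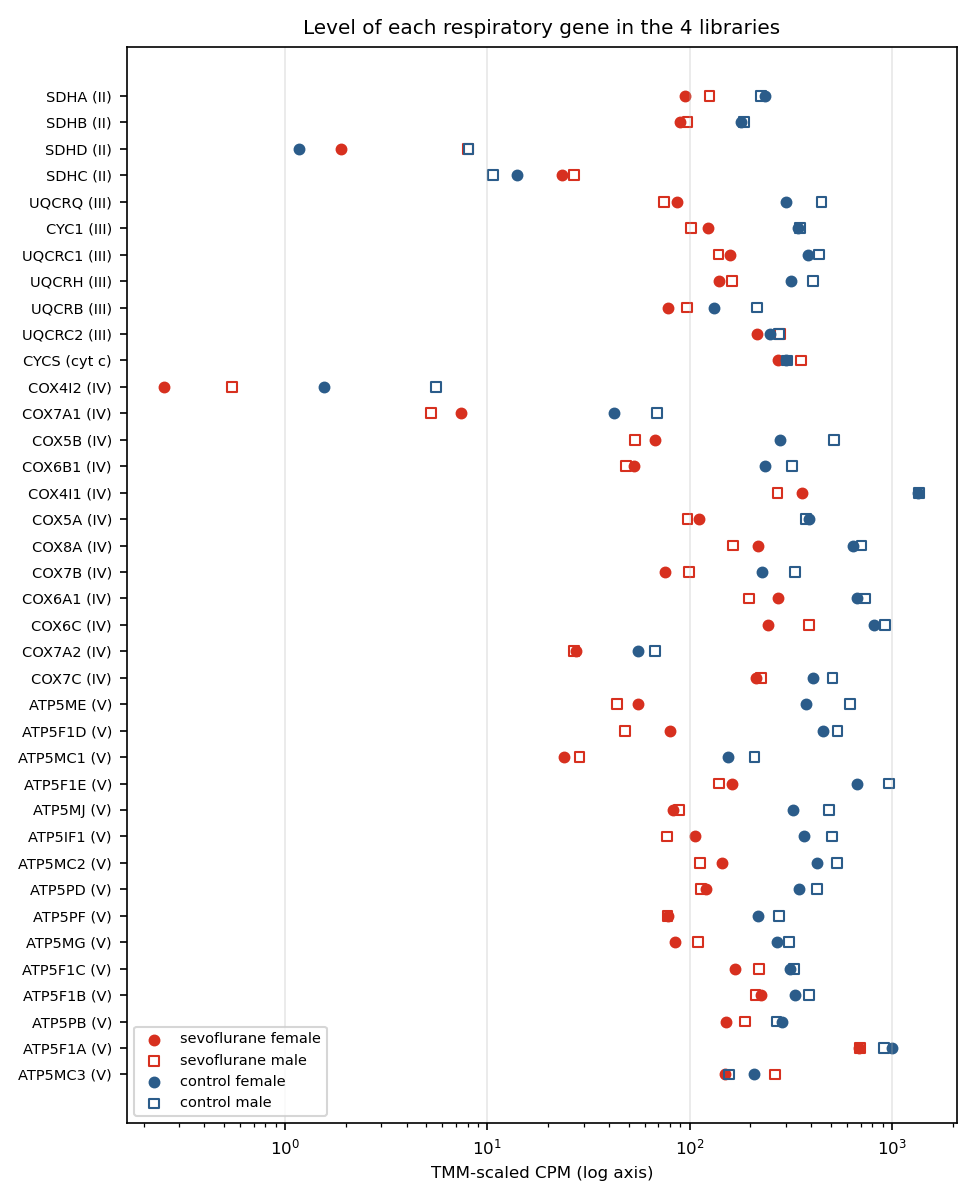
TMM-scaled CPM of the 38 genes in each library, on a log axis, with sevoflurane in red, control in blue, circles for females and squares for males. In 33 genes both sevoflurane values lie below both control values, and SDHC is the gene with both above.

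For 33 members both sevoflurane libraries lay below both control libraries, for 1 (SDHC) above, and for 4 (SDHD, UQCRC2, CYCS and ATP5MC3) the groups overlapped. Over all tested genes, 37.3% lay below without overlap and 37.7% above. Of the 28 that fell, 27 fell more than 2-fold and 12 more than 4-fold by the fitted value. COX4I2 was the 1 member that met the read minimum in a single condition. Without it, 27 of 37 fell and the median was −1.58.

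**Figure D2:**
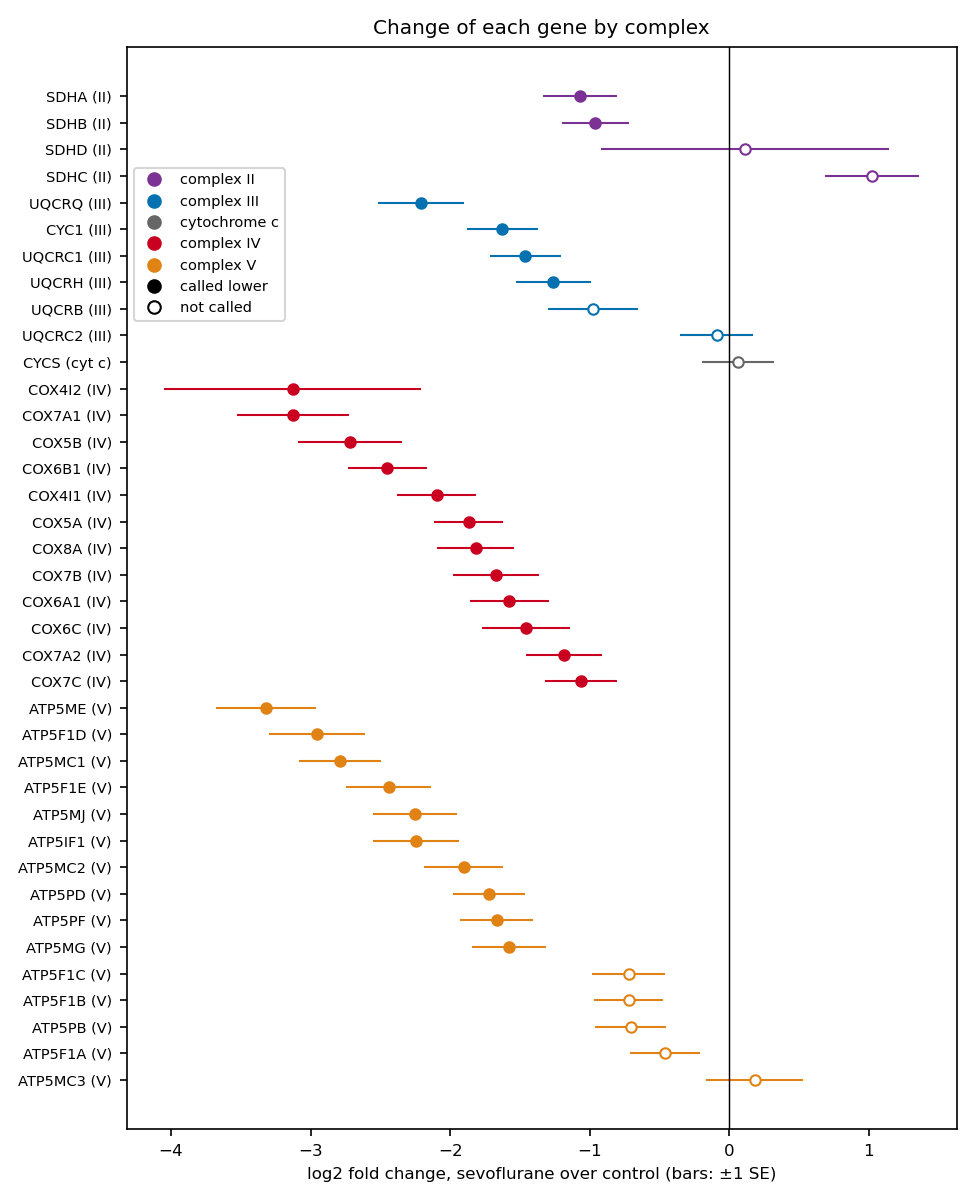
Log2 fold change of sevoflurane over control for each gene with its standard error, grouped by complex; filled points were called lower and open points were not called. Complex IV holds filled points only, from −3.13 to −1.06, while SDHC, SDHD, CYCS, UQCRC2 and ATP5MC3 lie near or above 0.

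Complex II is the one respiratory complex built wholly from nuclear genes, and its catalytic pair fell while its membrane anchors were not called. SDHA, the flavoprotein that oxidizes succinate, stood at 94.8 and 125 CPM in the sevoflurane female and male, against 236 and 226 CPM in the control female and male. SDHB, the iron-sulfur subunit that passes the electrons on, stood at 89.6 and 97.7 CPM in the sevoflurane female and male, against 180 and 185 CPM in the control female and male. Both were low in both sevoflurane libraries without overlap, and both fell (SDHA −1.07 ± 0.26 SE, edgeR adjusted p = 0.0208; SDHB −0.96 ± 0.24, adjusted p = 0.0215). SDHA lost its call without either control library or without the sevoflurane female, and SDHB without any 1 library and with library totals in place of TMM.

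SDHC and SDHD encode the anchors that hold the enzyme in the membrane and bind ubiquinone. SDHC stood at 23.4 and 26.8 CPM in the sevoflurane female and male, against 14.0 and 10.7 CPM in the control female and male. Its sevoflurane values were the higher ones in both sexes (1.02 ± 0.34). SDHD stood at 1.90 and 8.04 CPM in the sevoflurane female and male, against 1.17 and 8.08 CPM in the control female and male, so the groups overlapped and both male libraries were high (0.11 ± 1.03, adjusted p = 0.941). Its value was −1.27 with the sevoflurane male library left out, −0.67 with the control female and 2.05 with the control male left out. SDHD rests on 18 to 117 reads a library. In the human genome SDHC, SDHD and CYCS have processed copies, and how reads shared with such copies were counted is unknown, so these values are uncertain. The same is unknown for the other members, including those that fell, whose copies were not examined here.

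Complex III oxidizes ubiquinol, and its members ranged from a large fall to almost no difference. CYC1, cytochrome c1, the haem protein that hands electrons to cytochrome c, stood at 124 and 102 CPM in the sevoflurane female and male, against 344 and 352 CPM in the control female and male. The control values lay close together and the sevoflurane values far below them (−1.63 ± 0.25, adjusted p = 0.00505). UQCRQ, a small accessory subunit, stood at 86.9 and 74.7 CPM in the sevoflurane female and male, against 298 and 449 CPM in the control female and male. It fell most in this complex (−2.21 ± 0.31, adjusted p = 0.00372).

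UQCRC1 and UQCRC2 are the paired core proteins of complex III, related to the peptidases that process mitochondrial precursors. UQCRC1 stood at 159 and 139 CPM in the sevoflurane female and male, against 386 and 435 CPM in the control female and male. It fell by 1.46 ± 0.25 on the log2 scale (adjusted p = 0.00669). UQCRC2 stood at 215 and 279 CPM in the sevoflurane female and male, against 250.3 and 276 CPM in the control female and male. Its groups overlapped (−0.09 ± 0.26, adjusted p = 0.804), and its sign turned above 0 with library totals and without the sevoflurane female library. UQCRH, the hinge protein that helps dock cytochrome c1, fell by 1.26 ± 0.27 (adjusted p = 0.0127), a call lost without the control male library. UQCRB, a ubiquinone-binding accessory subunit, missed the threshold with values that did not overlap (−0.98 ± 0.32, adjusted p = 0.0504), and was called lower with sex as a block (adjusted p = 0.0131) and by DESeq2.

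CYCS stood at 274 and 356 CPM in the sevoflurane female and male, against 300.1 and 303 CPM in the control female and male. Both control values lay between the sevoflurane values, and its sign turned to −0.13 without the sevoflurane male library. The log2 ratio of CYCS to CYC1 reads was 1.14 and 1.80 in the sevoflurane female and male, against −0.20 and −0.22 in the control female and male.

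In complex IV the accessory subunits encoded in the nucleus surround a catalytic core encoded in mitochondrial DNA. COX4I1, the regulatory subunit that binds ATP, stood at 361 and 272 CPM in the sevoflurane female and male, against 1346 and 1365 CPM in the control female and male. Both sevoflurane values were far below the closely placed control values (−2.10 ± 0.29, adjusted p = 0.00357). COX5A stood at 111 and 97.7 CPM in the sevoflurane female and male, against 389 and 375 CPM in the control female and male (−1.87 ± 0.25, adjusted p = 0.00344). COX5B, which carries a zinc ion, stood at 67.5 and 53.6 CPM in the sevoflurane female and male, against 281 and 515 CPM in the control female and male (−2.72 ± 0.37, adjusted p = 0.00362). The subunit 5 genes thus both fell in both sexes, and COX5B had the wider spread between controls.

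The subunit 6 genes fell too. COX6A1, the broadly expressed form of subunit 6A, stood at 275 and 197 CPM in the sevoflurane female and male, against 675 and 734 CPM in the control female and male (−1.58 ± 0.28, adjusted p = 0.00757). COX6B1, which faces the intermembrane space, fell by 2.45 ± 0.28 (adjusted p = 0.00251). COX6C stood at 245 and 389 CPM in the sevoflurane female and male, against 818 and 922 CPM in the control female and male (−1.46 ± 0.32, adjusted p = 0.0137). Here the sevoflurane male was the higher of its pair, the reverse of COX6A1.

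COX7A2, COX7B, COX7C and COX8A are small membrane-spanning subunits. COX7A2 stood at 27.3 and 26.7 CPM in the sevoflurane female and male, against 55.5 and 67.5 CPM in the control female and male (−1.19 ± 0.27, adjusted p = 0.0169). COX8A, the broadly expressed form of subunit 8, stood at 218 and 164 CPM in the sevoflurane female and male, against 640.5 and 708 CPM in the control female and male (−1.82 ± 0.28, adjusted p = 0.00464). Neither overlapped between groups. COX7B fell by 1.67 ± 0.31 and COX7C by 1.06 ± 0.26, the smallest fall in this complex. COX7C lost its call without the control male or either sevoflurane library, and COX7A2 without the control male or the sevoflurane male.

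Alternative isoforms of complex IV, which are restricted to certain tissues, were scarce or fell. COX7A1, the form known from heart and skeletal muscle, stood at 7.41 and 5.29 CPM in the sevoflurane female and male, against 42.2 and 69.0 CPM in the control female and male. It was low in both sevoflurane libraries and 8.74-fold higher in controls (−3.13 ± 0.40, adjusted p = 0.00306). COX4I2, an oxygen-responsive form of subunit 4 known from lung and, in mouse brain, from pericytes, had 4 and 8 reads in the sevoflurane female and male, against 24 and 63 in the control female and male (−3.13 ± 0.92, adjusted p = 0.0362). Its value was −1.98 without the control male library, −3.75 without its female partner and −3.76 without the sevoflurane male, and its call was lost without the control male or either sevoflurane library.

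Levels of other markers moved beside these isoforms. Of 5 pericyte and smooth muscle markers, 2 fell and 1 rose, and their summed level was 165 and 115 CPM in the sevoflurane female and male, against 274 and 190 CPM in the control female and male. RGS5, a pericyte marker, rose by 1.93 ± 0.34, and ACTA2, smooth muscle actin, fell by 3.24 ± 0.43. The muscle markers summed to 68.7 and 109 CPM in the sevoflurane female and male, against 246 and 402 CPM in the control female and male, and 2 of 4 tested fell, while MB had 0 or 1 read and CKM 0 to 15 reads a library. The part of these cells in the fall of COX7A1 and COX4I2 was not tested. COX6A2, the muscle form of subunit 6A, had 2 and 1 reads in the sevoflurane female and male, against 4 and 10 in the control female and male. COX6B2, known from testis, had 0 reads in all but the control male library, which had 2. COX8C had 0 reads in all 4 libraries, which allows a level of up to 0.190 to 0.266 CPM (a limit of 3 reads, counting error only).

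The ATP synthase couples a rotating ring in the membrane to a catalytic head in the matrix, and 10 of its 15 genes fell. ATP5F1A and ATP5F1B, the alpha and beta subunits that form the head and hold the catalytic sites, were not called. ATP5F1A stood at 691 and 698 CPM in the sevoflurane female and male, against 999 and 911 CPM in the control female and male (−0.46 ± 0.25, adjusted p = 0.186). ATP5F1B stood at 227 and 212 CPM in the sevoflurane female and male, against 333 and 389 CPM in the control female and male (−0.72 ± 0.25, adjusted p = 0.0575). In both genes the sevoflurane values were the lower ones without overlap.

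The central stalk turns inside the head and is built from gamma, delta and epsilon. ATP5F1C (gamma) was not called (−0.72 ± 0.26, adjusted p = 0.0677). ATP5F1D (delta) stood at 80.3 and 47.9 CPM in the sevoflurane female and male, against 454 and 539 CPM in the control female and male, and fell by 2.95 ± 0.35 (adjusted p = 0.00255). ATP5F1E (epsilon) stood at 162 and 140.2 CPM in the sevoflurane female and male, against 672 and 970.4 CPM in the control female and male, and fell by 2.44 ± 0.30 (adjusted p = 0.00293). With sex as a block, ATP5F1C and ATP5F1B were also called lower (adjusted p = 0.0442 and 0.0492), as they were by DESeq2.

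The c-ring carries the protons, and ATP5MC1, ATP5MC2 and ATP5MC3 encode the same mature c subunit behind different targeting peptides. ATP5MC1 stood at 23.9 and 28.6 CPM in the sevoflurane female and male, against 154 and 209 CPM in the control female and male (−2.79 ± 0.29, adjusted p = 0.00219). ATP5MC2 stood at 145 and 113 CPM in the sevoflurane female and male, against 427 and 537 CPM in the control female and male (−1.90 ± 0.28, adjusted p = 0.00439). ATP5MC3 stood at 149 and 264 CPM in the sevoflurane female and male, against 208 and 156 CPM in the control female and male. Its groups overlapped and the sexes moved in opposite directions (0.18 ± 0.35, adjusted p = 0.702), and its sign turned to below 0 without either male library. Summed over the 3 genes, the level was 362 ± 60.8 CPM in sevoflurane and 845 ± 79.9 CPM in control libraries (SD, n = 2 each), 2.34-fold higher in controls.

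**Figure D3:**
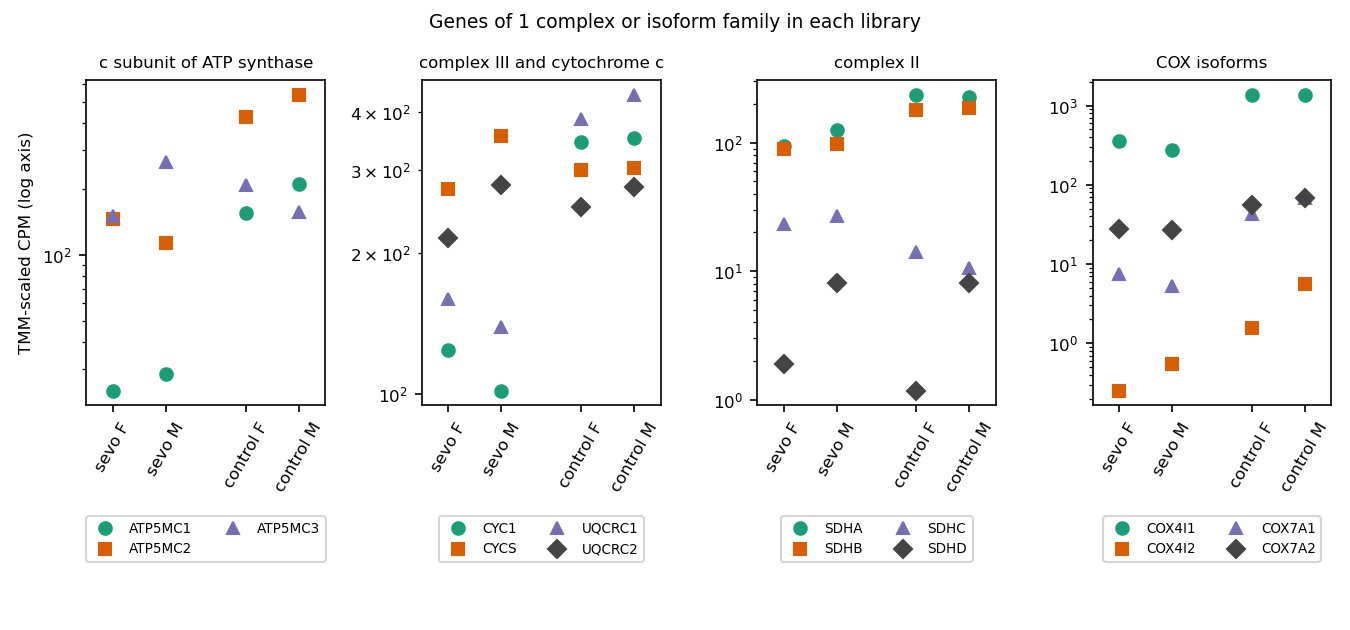
TMM-scaled CPM (log axis) in the sevoflurane female and male and the control female and male for the c-subunit genes, for 4 genes at and around cytochrome c, for complex II and for isoform pairs of complex IV. ATP5MC1, CYC1, UQCRC1, SDHA and COX7A1 lie lower in sevoflurane, while ATP5MC3, CYCS and UQCRC2 overlap between the groups and SDHC is higher in sevoflurane.

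The peripheral stalk holds the head still. ATP5PD and ATP5PF fell (−1.72 ± 0.26 and −1.67 ± 0.26, adjusted p = 0.00452 and 0.00495), and ATP5PB was not called (−0.71 ± 0.25, adjusted p = 0.0645; DESeq2 adjusted p = 0.0425). The small membrane subunits e, g and 6.8PL, encoded by ATP5ME, ATP5MG and ATP5MJ, help the enzyme dimerize and shape the cristae, and all 3 fell. ATP5ME stood at 55.8 and 43.7 CPM in the sevoflurane female and male, against 375 and 619 CPM in the control female and male. Its fall was the largest of the members (−3.32 ± 0.36, adjusted p = 0.00227), 9.98-fold higher in controls. ATP5MG and ATP5MJ were at −1.58 ± 0.27 and −2.25 ± 0.30 (adjusted p = 0.00637 and 0.00345).

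ATP5IF1 encodes the inhibitor that stops the synthase from running backwards and consuming ATP. It stood at 106 and 77.6 CPM in the sevoflurane female and male, against 368 and 504 CPM in the control female and male. Both sevoflurane libraries were low (−2.25 ± 0.31, adjusted p = 0.00362).

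The log2 ratio between reads of partner genes was computed for 10 pairs, all chosen after their values were seen, and is given as a description with no test. ATP5MC3 to ATP5MC1 stood at 2.64 and 3.20 in the sevoflurane female and male, against 0.43 and −0.42 in the control female and male. The ratio of UQCRC2 to UQCRC1 was 0.44 and 1.01 in the sevoflurane female and male, against −0.62 and −0.65 in the control female and male. For SDHC to SDHA it was −2.01 and −2.22 in the sevoflurane female and male, against −4.06 and −4.39 in the control female and male. Each of these pairs, like CYCS to CYC1, sets a gene that was not called against one that fell, so the choice of pair fixes its direction. The pairs of SDHA and SDHB and of the alpha and beta subunits had smaller differences. SDHA to SDHB stood at 0.08 and 0.36 in the sevoflurane female and male, against 0.39 and 0.29 in the control female and male, a mean difference of −0.12, and the mean difference of ATP5F1A to ATP5F1B was 0.26.

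Females and males share no library, so the difference within each sex was also computed. All 28 members that fell were lower in both sexes. The calls came from the same libraries, which makes this likely in advance, so it is no separate support. The median difference in log2 CPM over the 38 members was −1.50 in females and −1.76 in males. For all tested genes it was 0.0018 and 0.015, values that TMM scaling largely sets. In males the difference was the more negative one for 27 of the 38, and the share over all tested genes was not computed. The male difference rests on the control male library that stood apart in choroid plexus markers. Between males and females, with condition as a further term, edgeR called 0 of 38 members, beside 1.84% of all tested genes, and 1 member had an unadjusted p under 0.05, beside 10.9% of all tested genes. Whether the response differed between the sexes could not be tested with 1 library of each kind.

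**Figure D4:**
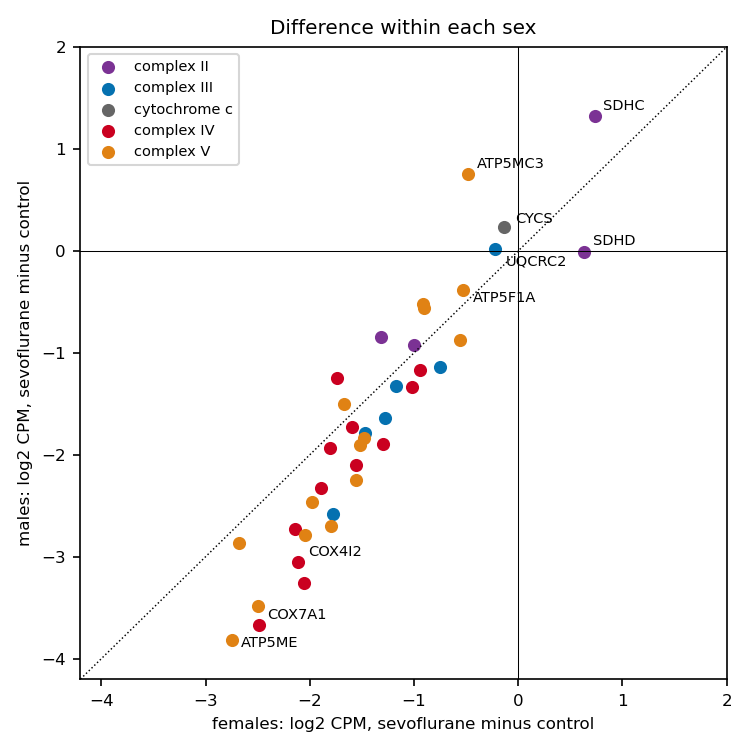
Difference in log2 CPM, sevoflurane minus control, in females (horizontal) and in males (vertical) for each gene, coloured by complex; the dotted line marks equal differences. Most points lie below 0 on both axes, and ATP5ME and COX7A1 are among the lowest, while ATP5MC3, CYCS, SDHD and UQCRC2 have opposite signs.

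Assembly factors, which insert cofactors and join subunits, fell in part, beside 19.4% of all tested genes called lower and 21.3% higher. Of 4 for complex II, 2 fell (SDHAF2 −1.31 ± 0.25; SDHAF1 −1.70 ± 0.51, a call lost with library totals or when the control female or sevoflurane male library was left out; −2.50 without the sevoflurane female). Of 7 for complex III, 3 fell, led by UQCC2 (−2.25 ± 0.26) and BCS1L (−1.19 ± 0.26), which installs the Rieske protein. The count was 1 without the control male or the sevoflurane male library, where BCS1L lost its call. For complex IV 10 of 20 fell and 2 rose (10 and 1 of 18 without COX14 and COX18, which had 10 reads in the sevoflurane libraries alone). PET100 was at −2.37 ± 0.57 and COX17, a copper chaperone, at −2.03 ± 0.40. COX18, which moves part of a core subunit through the membrane, had 115 and 100 reads in the sevoflurane female and male, against 8 and 1 in the control female and male, and rose by 4.43 ± 0.84 (6.20 when the control female library was left out and 3.71 when the control male was). LRPPRC, which stabilizes mitochondrial messenger RNAs, rose by 1.21 ± 0.31, a call lost without the control female or the sevoflurane male. Without either sevoflurane library 6 complex IV factors fell. PET100 lost its call without the sevoflurane male and was at −3.07 without the sevoflurane female. Of 4 factors for complex V, ATPAF2 and TMEM70 fell (ATPAF2 −1.25 ± 0.30), and both calls were lost without the control female or the sevoflurane male, and that of TMEM70 without any 1 library.

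Of 15 regulators of respiratory gene transcription tested, 5 rose and 1 fell. PPARGC1A and ESRRG reached 10 reads in the sevoflurane libraries alone, and without them 3 of 13 rose and 1 fell. Of all tested genes, 21.3% were called higher and 19.4% lower. The median log2 fold change of the regulators was −0.26, and −0.27 without PPARGC1A and ESRRG. PPARGC1A, the coactivator PGC-1 alpha, had 300 and 247 reads in the sevoflurane female and male, against 7 and 1 in the control female and male. It rose by 5.91 ± 0.71 (adjusted p = 0.00267), with 7.54 when the control female library was left out and 5.24 when the control male was. ESRRG, an estrogen-related receptor that works with it, had 123 and 56 reads in the sevoflurane female and male, against 3 and 3 in the controls, and rose by 4.62 ± 0.77 (4.03 without the sevoflurane female). GABPA, the DNA-binding part of NRF2/GABP, rose by 3.24 ± 0.46 and NRF1 was not called (−0.35 ± 0.32), a pair picked with their values in view. The regulator that fell was POLRMT, the mitochondrial RNA polymerase (−1.77 ± 0.30), and without the sevoflurane female library 2 fell.

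Neighbouring mitochondrial pathways were mixed, beside 19.4% of all tested genes called lower and 21.3% higher. The called shares of the carriers and of the other electron donors lay below these. Of 8 carriers of nucleotides and phosphate 1 fell, the ADP/ATP carrier SLC25A4 (−0.86 ± 0.27), a call lost with library totals and without any 1 library. Among 7 other donors of electrons to ubiquinone, ETFB of the electron transfer flavoprotein fell by 2.97 ± 0.33 and the glycerol phosphate dehydrogenase GPD2 rose by 1.69 ± 0.31, and 2 fell without the control female. In the TCA cycle 6 of 14 fell, with MDH2 at −1.58 ± 0.27 and IDH3G at −1.37 ± 0.25, and 1 rose, SUCLA2 (1.69 ± 0.32). Of 13 genes of import, chaperoning and cristae, 5 fell and 1 rose. There MICOS13 fell (−2.59 ± 0.42, and −3.24 without the sevoflurane female), TIMM50 fell by 2.12 ± 0.31, and OPA1, the inner membrane fusion protein, rose by 2.90 ± 0.34. Among 30 nuclear subunits of complex I, 26 fell and 1 rose, with a median of −1.82. NDUFB7 and NDUFS7 fell (−3.12 ± 0.33 and −2.98 ± 0.36), and NDUFS1 rose by 1.49 ± 0.26. Without the sevoflurane female library 2 complex I genes rose.

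**Figure D5:**
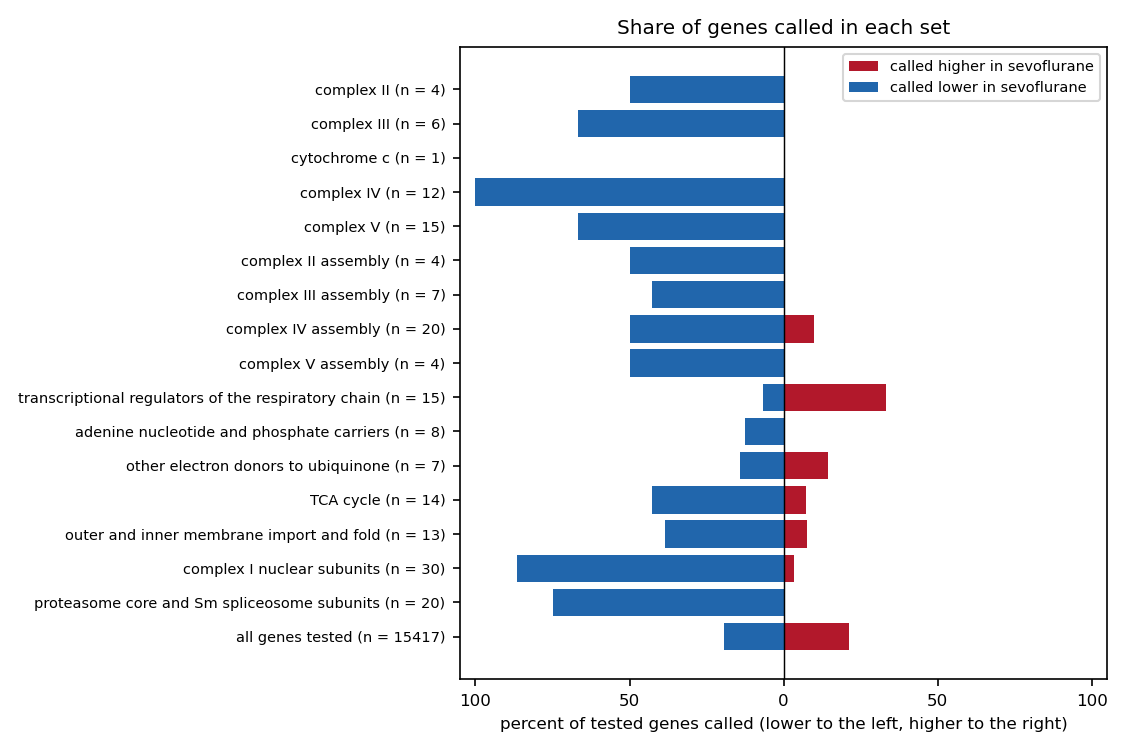
Percent of tested genes called lower (left, blue) and higher (right, red) in sevoflurane for each complex, each companion list and all tested genes, with the number tested. Complex IV reaches 100% lower, and complex I subunits also lie far left of the 19.4% of all tested genes. So do the proteasome and Sm genes, a list added after the values were seen. Of 15 regulators of transcription, 5 were called higher, beside 21.3% of all tested genes. Without PPARGC1A and ESRRG, which met the read minimum through the sevoflurane libraries alone, 3 of 13 were called higher.

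Some genes outside mitochondria fell as well. A list of 20 core proteasome and Sm spliceosome subunits was added after the values were seen. In it 15 fell and 0 rose (median −1.34). Over all tested genes, 19.4% were called lower and 21.3% higher. A list chosen in this way cannot show how genes outside mitochondria moved in general. Lengths of transcripts were not analysed here, and the part of transcript class in the fall of the respiratory genes was not tested. Sums over neuronal markers were 5341 and 5974 CPM in the sevoflurane female and male, against 4852 and 4381 CPM in the control female and male, with 1 of 5 called lower and 1 higher. Sums over 7 microglial markers, of which 5 fell, were 162 and 222 CPM in the sevoflurane female and male, against 434 and 393 CPM in the control female and male. Sums over 6 astrocyte markers were 2885 and 3699 CPM in the sevoflurane female and male, against 4010 and 3535 CPM in the control female and male. Of these astrocyte markers 2 fell and 1 rose, with log2 fold changes from −2.53 to 4.30. Of 5 endothelial markers 1 fell and 2 rose, from −2.63 to 4.97. Oligodendrocyte markers, 0 of 5 called, summed to 2974 and 3870 CPM in the sevoflurane female and male, against 1462 and 6359 CPM in the control female and male. The part of the cell makeup in these results was not tested.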

How the data were processed

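The authors deposited 1 table of raw read counts per Ensembl gene for 4 libraries. Reads were aligned with HISAT2, per the submitters' processing notes; its version, the counting program, strand setting, genome build and annotation are unknown from the sources used here. Symbols came from a table of gene IDs that named 24173 of 35395 rows. The labels for treatment and sex gave the groups and the sexes; replicate 1 (female) and 2 (male) are only names. Genes were kept with edgeR's filterByExpr (edgeR 4.0.16, R 4.3.3, minimum count 10), which left 15417, scaled by TMM and compared by the quasi-likelihood F-test, with no term beyond condition (2 residual degrees of freedom). Standard errors were derived from F. Differences within a sex and ratios used log2 CPM with prior count 2. On simulated counts for this comparison (15173 genes, dispersion 0.05) 90 of 100 genes changed 4-fold and 13 of 98 changed 2-fold were recovered, with 2 false calls. The simulation changed few genes at a fixed dispersion, while 40.7% of tested genes were called in these data. Its rates therefore do not carry over to the real comparison. The members, gene lists and tests were chosen with earlier results of these data known; the list of proteasome and Sm genes, the test between the sexes and the ratios were added after the values were seen. Named genes were the core subunits of each complex, its largest changes and its alternative isoforms, and in other lists the 2 largest called changes in each direction. Alternatives were library totals, RLE size factors, DESeq2 1.42.0, 2 other filters, sex as a term, and leaving out each library. Protein lengths and promoters were not analysed here.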

Additional observations from a re-analysis of the deposited data

Results flagged for a closer look

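In 4 members the female and the male difference, sevoflurane minus control in log2 CPM, had opposite signs, and none of the 4 was called. ATP5MC3 differed by −0.48 in females and 0.76 in males, SDHD by 0.63 in females and −0.01 in males, UQCRC2 by −0.22 in females and 0.02 in males, and CYCS by −0.13 in females and 0.23 in males. With 1 library of each kind, the difference between the sexes was not tested.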

How the results depend on the processing

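All 28 members called lower kept their negative sign under all 10 alternatives, and 22 of them kept their call under each; the 6 that did not were SDHA, SDHB, UQCRH, COX4I2, COX7A2 and COX7C. With library totals in place of TMM the median of all tested genes was 0.24, the members' median was −1.37, and 27 members, 1 of them in complex II, were called lower. SDHC was called higher, so that 1 member and 1 complex II gene rose, with library totals, RLE size factors, DESeq2, no low-count filter, and the replicate block (sex as a term). The replicate block, in which each sex pairs 1 sevoflurane with 1 control library though the labels give no numbers that pair them, called 31 members lower and 1 higher, and lost 0 of the 28 calls. DESeq2 called 32 lower. Leaving out 1 library gave 22 to 27 members called lower, with medians of −1.64 to −1.51, 0 to 1 complex II genes called lower, and 1502 to 2771 of all genes lower and 1967 to 3029 higher; the lowest of the counts over all genes were those without the sevoflurane male library. Each such fit has 1 residual degree of freedom and takes the lone library to vary like the other group. Depth limits SDHD, COX4I2 and the genes below the read minimum most.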

Other observations

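Sex was compared within the members with condition and sex as terms in edgeR, a test added after the values were seen, with 1 residual degree of freedom. SDHD, a membrane anchor of complex II, had 117 and 91 reads in the males (sevoflurane, control), against 30 and 18 reads in the females (sevoflurane, control). Its log2 fold change of male over female was 2.41 ± 0.61 (SE, adjusted p = 0.0539), higher in the male of both conditions. No member passed the threshold (0 of 38), while 283 of all tested genes, 1.84%, were called. At an unadjusted p under 0.05, 1 of 38 members (SDHD) stood beside 1673 of all tested genes, 10.9%. The median absolute log2 difference between the sexes over the members was 0.183 in this fit. The median of −1.60 between conditions is taken over signed values from the fit without sex, so these are unlike measures.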
